A study of Mus musculus with 2 samples.

Results

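Enterocyte-like cells were the epithelial cells of the co-cultures that carried transcripts of absorptive cells above a set share. A cell was taken as enterocyte-like when Fabp1, Fabp2, Apoa1, Apoa4 and Sis together made up at least 0.5% of its transcripts and 7 mitotic genes (Mki67, Top2a, Cenpf, Cenpe, Hmmr, Nusap1 and Ube2c) made up less than 0.3%. Before that, a cell had to show at least 300 genes, at most 20% of its transcripts from mitochondrial genes, and more epithelial (Epcam, Krt8, Krt18, Krt19, Cldn7) than fibroblast (Col1a1, Col1a2, Col3a1, Sparc, Dcn) transcripts. The rule chose 107 cells out of 2446 that passed the cell filters, 16 in the library labelled Ptger4-ON and 91 in the library labelled Ptger4-OFF. The 5 absorptive genes were read to choose the cells, so their levels are given below as a description only.

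The cells came from C57BL6 mice 10 weeks of age. Fibroblasts and crypts of the small intestine were grown together in Organoid Growth Media, trypsinised with EDTA and captured as single cells on barcoded beads by Drop-seq, which counts each transcript once through a unique molecular identifier (UMI). Both groups shared the mouse strain and the medium, and both held fibroblasts. The Ptger4-ON cultures received the solvent DMSO and grew as spheroids, and the Ptger4-OFF cultures received ONO-AE3-208, an antagonist of the prostaglandin E2 receptor EP4 (gene Ptger4), at 10 µM every second day and grew as budding organoids. Each condition was 1 library made from a pool of 6 co-cultures, so there was no replicate within a condition, the genes carry no p-values, and every interval below is a 95% interval for counting error alone. PCR copies are collapsed by the UMI, but an interval for counting error does not contain the spread between cells or between cultures.

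Enterocytes are the absorptive cells that line the villi of the small intestine. They leave the crypt, stop dividing and build an apical brush border of microvilli, where enzymes split sugars and peptides and transporters take up the products. Inside the cell, fatty acid binding proteins carry dietary lipid, which is packed with apolipoproteins into chylomicrons, and cytochromes P450, esterases and conjugating enzymes act on ingested compounds. Their genes also differ along the gut, with iron uptake and lactase towards the duodenum and bile acid recovery in the ileum. Prostaglandin E2 acting on EP4 raises cyclic AMP in epithelial cells, and in culture it is known to favour spheroids over budding organoids.

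The regulatory sequence in front of these genes is shown for 2 of them, because textbook factors of enterocyte genes such as CDX2 and HNF4A are defined by the sites they bind there. The sequences are from RefSeq, build GRCm38.p6, and run 5′ to 3′ on the strand of the gene up to the base before the transcript start, with the motif in capitals. Sis encodes sucrase-isomaltase, and the window lies at chr3:72967864-72968113 on the minus strand. Fabp2 encodes the intestinal fatty acid binding protein, at chr3:122894822-122895071 on the plus strand. The capitals mark the CDX2 motif GCAATAAA in Sis and its reverse complement in Fabp2.
Sis: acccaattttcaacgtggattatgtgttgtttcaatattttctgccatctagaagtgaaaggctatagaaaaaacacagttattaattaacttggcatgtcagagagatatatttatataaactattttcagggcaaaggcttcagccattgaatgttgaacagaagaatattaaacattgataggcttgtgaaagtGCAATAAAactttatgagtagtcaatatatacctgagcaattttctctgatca
Fabp2: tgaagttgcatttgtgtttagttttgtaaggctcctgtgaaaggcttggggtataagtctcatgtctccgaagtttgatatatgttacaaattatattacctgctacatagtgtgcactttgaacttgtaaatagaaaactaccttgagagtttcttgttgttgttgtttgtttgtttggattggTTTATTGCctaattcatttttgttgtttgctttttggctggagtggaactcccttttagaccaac

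Over 250 bases before the start and both strands, the CDX2 motif was found in 0.871% of the 32851 RefSeq promoter windows and in those of Fabp2, Sis and Slc10a2 among the 156 named genes with a window. The HNF4A motif CAAAGTCCA was in 0.384% of all windows and in that of Cyp3a11. The cAMP response element TGACGTCA was in 1.55% of all windows and in 6 of 188 windows of named genes (Areg, Cenpe, Cldn7, Dusp1, Ggt1 and Ldha). The FXR motif, an inverted repeat bound by the bile acid receptor, was in 0.0335% of all windows and in 0 of the named genes. No motif searched is contained in another, and a match is a description of the sequence and not a bound site.

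Depth of the members was set by a few cells. The libraries held 7408303 UMIs in 908 barcodes (Ptger4-ON) and 9490205 UMIs in 1599 barcodes (Ptger4-OFF), and 882 and 1564 barcodes passed the filters. The 16 Ptger4-ON members held 179118 UMIs with a median of 4538 per cell, and the 91 Ptger4-OFF members held 664605 with a median of 4797. A single Ptger4-ON barcode with 92081 UMIs supplied 51.4% of all member UMIs of that library, and the deepest Ptger4-OFF member, with 58243 UMIs, supplied 8.76%. The deep Ptger4-ON barcode had 2 further members whose barcodes differ from it by 1 base, with 1043 and 1464 UMIs, and the deepest Ptger4-OFF member had 1 such neighbour, with 3265 UMIs. In addition, 1 Ptger4-ON and 3 Ptger4-OFF members were the lesser of a pair in which 1 barcode ends in N and matches the other with 1 base left out. Whether such pairs are copies of 1 bead was not tested. Without barcodes over 50000 UMIs and without the lesser barcode of each such pair, 12 Ptger4-ON cells (83704 UMIs) and 86 Ptger4-OFF cells (596513 UMIs) remained, called distinct cells below. Values are counts per 1000000 UMIs of the members (CPM) over every member, and the value over distinct cells stands beside it where it differs by over 1.5 times or turns the direction. The 2 libraries shared 1 barcode, none of it among the members, and Scrublet called 0 members as doublets.

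**Figure D1:**
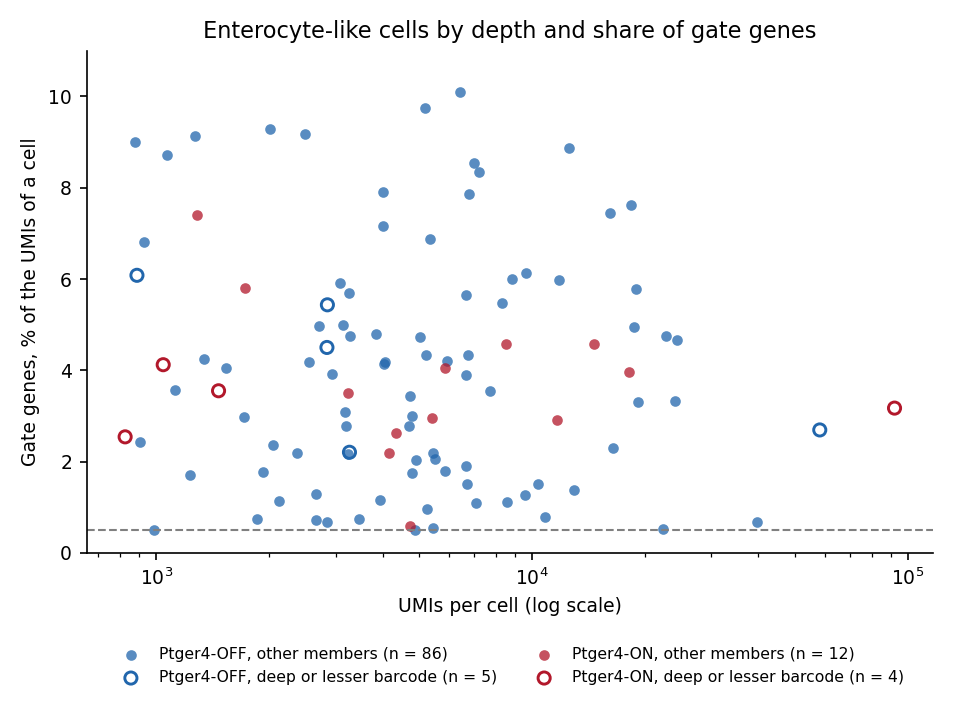
Each point is 1 enterocyte-like cell, with its UMIs on a log axis and the share of its UMIs from the 5 gate genes, by library. The dashed line is the gate at 0.5%, and open circles mark deep barcodes or the lesser barcode of a related pair, 4 of 16 in Ptger4-ON and 5 of 91 in Ptger4-OFF.

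The gate share had a median of 3.53% in Ptger4-ON (range 0.591% to 7.40%) and 3.90% in Ptger4-OFF (range 0.508% to 10.1%). The plot of members by depth shows them spread above the line rather than pressed against it. From 0.5% to 0.6% lay 1 Ptger4-ON and 4 Ptger4-OFF cells, and from 0.4% to 0.5%, just outside, lay 2 and 7 cells. The share of gate transcripts that came from each gene differed between the libraries. Apoa1, the main protein of high density lipoprotein, led in 11 of 16 Ptger4-ON and 27 of 91 Ptger4-OFF cells. Fabp1, a fatty acid binding protein shared with liver, led in 4 and 53 cells, Sis in 1 and 3, and Apoa4, an apolipoprotein made during fat absorption, in 0 and 8.

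As levels, Fabp1 stood at 10345 CPM in Ptger4-ON and 18346 CPM in Ptger4-OFF. Apoa4 stood at 1027 CPM and 5175 CPM, a ratio of 5.04 that was 3.03 over distinct cells. Sis was the reverse, at 6124 CPM and 2409 CPM, and Apoa1 stood at 13533 CPM and 9958 CPM. Fabp2 was at 2981 CPM in Ptger4-ON and 2221 CPM in Ptger4-OFF over every member and lay the other way over distinct cells, at 2138 CPM and 2329 CPM. Apoa1 (chr9:46228580-46230466), Apoc3 (chr9:46232933-46235636) and Apoa4 (chr9:46240696-46243459) lie next to each other on chromosome 9 of GRCm38.

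Ces2a and Guca2b were the 2 label markers that the rule did not read. The gene lists were chosen with earlier results of these data known, so their levels are a description and not an independent check. Ces2a, a carboxylesterase of the absorptive cell, stood at 2641 CPM in Ptger4-ON members and 10.2 CPM in the other non-cycling epithelial cells, and at 5320 CPM and 100.4 CPM in Ptger4-OFF. Guca2b, which encodes the secreted peptide uroguanylin, stood at 3802 CPM against 58.1 CPM in Ptger4-ON and at 2216 CPM against 80.8 CPM in Ptger4-OFF. To compare shares of cells at equal depth, each cell was thinned to 1000 UMIs, which left out 1 Ptger4-ON and 5 Ptger4-OFF members. Ces2a was then seen in 13 of 15 and 75 of 86 members (86.7% and 87.2%, against 87.5% and 94.5% unthinned), and in 0% and 0.847% of the 267 and 354 non-epithelial cells that reached this depth. Median depth before thinning was 4527 UMIs and 4452 UMIs in the non-epithelial cells, close to that of the members. Guca2b was seen in 86.7% and 66.3% of members at that depth (93.8% and 85.7% unthinned) and in 0.375% and 0.847% of non-epithelial cells.

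Markers of other cell types were low, with the exception of goblet and Paneth cell genes in Ptger4-ON and of an exocrine pancreas gene, Ctrb1, in Ptger4-OFF. Enteroendocrine genes summed to 11.2 CPM and 6.02 CPM and tuft cell genes to 5.58 CPM and 0 CPM, with Chga, Neurod1, Gip and Dclk1 at 0 UMIs in both libraries. Of 10 leukocyte genes 8 were in the files, all 8 at 0 in Ptger4-ON, and the sum in Ptger4-OFF was 9.03 CPM, with Ptprc, Cd3e and Cd79a at 0. The 14 fibroblast genes summed to 89.3 CPM and 94.8 CPM. The exocrine pancreas list, described with Ctrb1 below, summed to 162 CPM in 5 Ptger4-ON cells and 1929 CPM in 52 Ptger4-OFF cells. Goblet cell genes summed to 8631 CPM in Ptger4-ON and 865 CPM in Ptger4-OFF, but to 287 CPM and 870 CPM over distinct cells. Zg16, a goblet granule lectin, had 682 UMIs in 3 Ptger4-ON members, 97.1% of them in the deep barcode, and 0 CPM over distinct cells. Muc2, Tff3, Agr2, Spink4 and Fcgbp were likewise highest in that barcode. The Ptger4-ON goblet signal therefore sat mostly in 1 barcode, and no ratio for goblet genes is drawn on below. Paneth cell genes summed to 944 CPM and 400.2 CPM over every member and 143 CPM and 399 CPM over distinct cells.

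Members were more frequent in the Ptger4-OFF library. They made up 16 of 584 epithelial cells in Ptger4-ON, 2.74% (Clopper-Pearson interval 1.57% to 4.41%), and 91 of 1199 in Ptger4-OFF, 7.59% (6.15% to 9.24%). The ratio of shares was 2.77, with a counting interval of 1.62 to 5.05. Among non-cycling epithelial cells the shares were 4.11% and 11.1%, and among all cells that passed the filters they were 1.81% and 5.82%. Over distinct cells the ratio among epithelial cells was 3.03. The counting intervals of the shares do not overlap, but each condition is 1 pooled library, and how much the share varies between cultures was not measured.

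Beyond the gate, the genes that set these cells apart from the other non-cycling epithelial cells in both libraries were genes of lipid transport, detoxification and the brush border. This is a description of what goes with the gate, since the same cells were used to draw it. Of 5384 genes with at least 20 UMIs over the members of both libraries, 18.1% were at least 2-fold higher in members than in the 373 other non-cycling epithelial cells of Ptger4-ON, and 14.8% in the comparison with the 730 of Ptger4-OFF. Apoc3, an apolipoprotein of triglyceride-rich particles, stood at 112 CPM in Ptger4-ON members against 0.317 CPM, and at 539 CPM in Ptger4-OFF members against 1.01 CPM. Cyp3a11, a cytochrome P450 that oxidises many drugs, stood at 223 CPM with no UMI in the other cells of Ptger4-ON, at least 235-fold higher against a floor of 3 counts in those cells, and at 1013 CPM against 0.755 CPM in Ptger4-OFF. Cyp2c29, of another P450 family, was at least 1085-fold higher in Ptger4-ON and 632-fold in Ptger4-OFF.

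Leap2, which encodes a peptide that blocks the ghrelin receptor, was at least 111-fold and 246-fold higher than in the other cells. Cyp3a25 was 309-fold and 87.5-fold higher, and Spink3, a trypsin inhibitor, 85.8-fold and 330-fold. Creb3l3, a transcription factor of the fasting and lipid response, stood at 1011 CPM and 1085 CPM in members and was 88.4-fold and 38.1-fold higher. Dnase1, a secreted nuclease, had no UMI in the other non-cycling epithelial cells of either library, against 145 CPM and 16.6 CPM in members, at least 153-fold and 21.9-fold higher against the floor. By list, all 25 measured xenobiotic genes, all 13 brush-border hydrolases and 20 of 21 lipid genes were at least 2-fold above the other epithelial cells in both libraries. For the structural proteins of the microvillus it was 11 of 15, and for the transcription factors of enterocytes 11 of 25. Over all genes measured it was 630 of 5384. A gene was measured only through its UMIs in members, so genes low in members are left out of these counts. The data held 27 xenobiotic, 18 hydrolase and 22 lipid genes of the lists.

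Among genes that members still expressed, the named genes furthest below the other epithelial cells included genes of crypt cells and of ribosome assembly. Genes under 20 UMIs in members were not ranked, and Lgr5, Ascl2 and Olfm4, markers of crypt stem cells, had no UMI in Ptger4-ON members. In Ptger4-OFF members Ascl2 and Olfm4 had none either, but Lgr5 had UMIs. The crypt stem cell list summed to 296 CPM in 9 Ptger4-ON cells and 524 CPM in 61 Ptger4-OFF cells. Defa24, a Paneth cell defensin, stood at 39.1 CPM in members and 4436 CPM in the other cells of Ptger4-ON, and at 102 CPM and 1764 CPM in Ptger4-OFF. Slc12a2, a basolateral chloride transporter of crypt cells, was 17.6-fold lower in members of Ptger4-ON and 5.8-fold lower in those of Ptger4-OFF, with 39.1 CPM and 175 CPM left. Gpx2, a glutathione peroxidase of crypt cells, was 10.1-fold and 4.4-fold lower. The nucleolar and ribosome assembly genes Ncl, Npm1, Nop58 and Rsl1d1 were between 4.4-fold and 13.7-fold lower in the members of both libraries. Of 35 measured genes for cytosolic ribosomal proteins, 17 were at least 2-fold lower in members of both libraries, against 516 of the 5384 genes measured. For genes at least 2-fold lower the background was 20.3% in Ptger4-ON and 12.6% in Ptger4-OFF.

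Members differed among themselves along the share of gate genes. The classes below are cut on the value that chose the cells, and most gate genes are lipid genes, so this is a description and supports nothing about the other lipid genes. The Ptger4-OFF members fell into 11 cells from 0.5% to 1%, 14 from 1% to 2%, 39 from 2% to 5% and 27 over 5%, with median depths between 4057 and 6263 UMIs. Apoc3 went from 0 CPM in the lowest class through 35.5 CPM and 368 CPM to 1382 CPM in the highest. Cyp3a11 went from 9.98 CPM through 23.7 CPM and 822 CPM to 2389 CPM, and Ces2a from 858 CPM through 1339 CPM and 5297 CPM to 9816 CPM. S100a6, a calcium binding protein high in regenerating epithelium, ran the other way, at 1547 CPM, 2097 CPM, 431 CPM (188 CPM over distinct cells) and 56.9 CPM. In these classes Apoc3, Cyp3a11 and Ces2a were highest, and S100a6 lowest, in the class with the most gate transcripts.

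Single brush border genes ran differently from their lists. Vil1, which encodes the actin bundling protein villin, stood at 599 CPM, 877 CPM, 783 CPM and 836 CPM in the 4 classes, and Mgam, which encodes maltase-glucoamylase, at 778 CPM, 652 CPM, 1269 CPM and 830 CPM. The summed microvillus list nevertheless went from 2814 CPM in the lowest class to 4874 CPM in the highest, and the summed brush-border hydrolases from 1457 CPM to 4970 CPM. Xenobiotic genes went from 10237 CPM in the lowest class to 41606 CPM in the highest, and ribosomal protein genes from 55256 CPM to 16566 CPM. The crypt stem cell list went from 1157 CPM to 154 CPM. The 2 lowest classes hold under 20 cells each, and the same order is seen between the 2 fuller ones, with ribosomal protein genes at 29934 CPM from 2% to 5%. In Ptger4-ON, 13 of 16 members lay between 2% and 5%, so the classes could not be compared within that library. Over 5% lay 2 Ptger4-ON and 27 Ptger4-OFF members, so the library ratios below mix unlike gate shares. From 2% to 5%, Ptger4-ON and Ptger4-OFF stood at 8584 CPM and 9203 CPM for the lipid list and 24589 CPM and 25617 CPM for xenobiotic genes. The microvillus list stood at 6518 CPM and 4511 CPM, and the fetal-like list at 11548 CPM and 5731 CPM. The part of the gate share in the ratios was not tested.

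**Figure D2:**
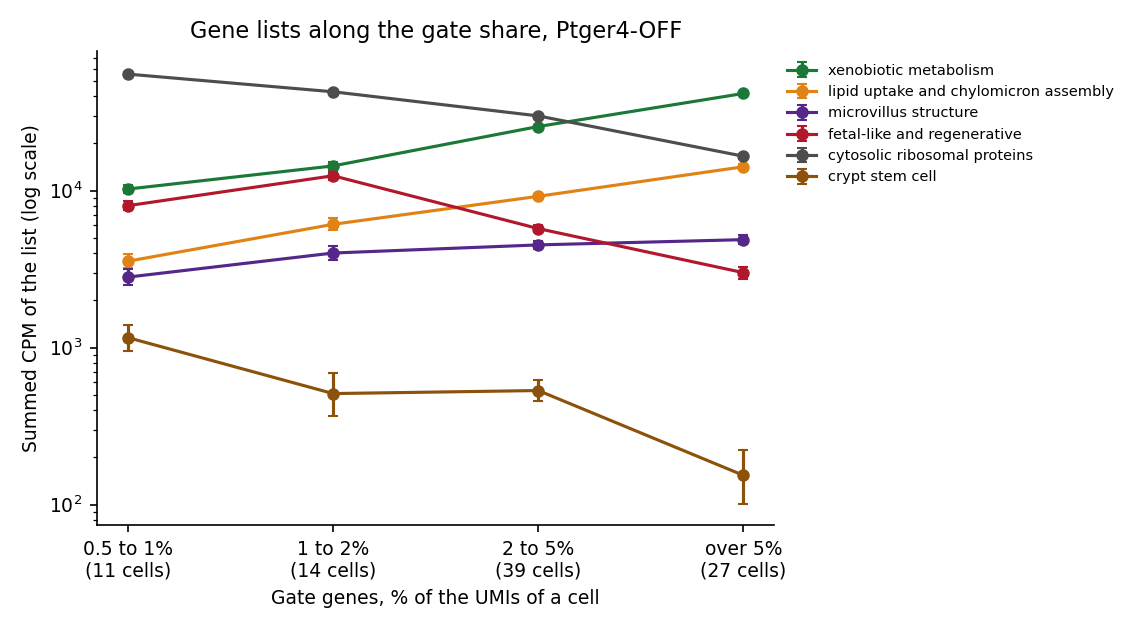
Summed CPM of 6 gene lists, on a log axis, in 4 classes of Ptger4-OFF members by the share of gate genes in the UMIs of a cell, with 95% Poisson intervals that cover counting error only. Xenobiotic genes go from 10237 CPM to 41606 CPM while ribosomal protein genes go from 55256 CPM to 16566 CPM.

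Between the libraries, 531 of the 5384 genes measured were at least 2-fold higher in Ptger4-OFF members (9.86%) and 338 at least 2-fold lower (6.28%), with a median log2 ratio of 0.02 over all genes. The ratio adds 0.5 to each count before taking the log2. Only 290 of the higher genes (5.39% of those measured) and 227 of the lower genes (4.22%) also passed 2-fold over distinct cells. Counting any size, 51.1% of genes were higher and 48.9% lower. Over distinct cells alone, with 4848 genes measured, 11.1% were at least 2-fold higher, 8.37% at least 2-fold lower, and 50% lay on each side. These shares are the background for the counts that follow. The members' share differed between the libraries as well, so a level per member and the number of members are separate measurements here. No statement about a gene below has a test behind it.

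Lipid uptake and chylomicron genes as a list did not differ in one direction. Of 21 measured genes, 10 were higher and 11 lower in Ptger4-OFF, and the median log2 ratio was -0.05. Past 2-fold, 4 were higher (19.0%, against 9.86% of all genes) and 1 lower (4.76%, against 6.28%), with the same counts over distinct cells. Within the list Apoc3, Apoc2 and Scarb1 were higher in Ptger4-OFF, while the apolipoprotein Apob, given below, was lower. Apoc3 was at 112 CPM in Ptger4-ON (7 cells with a UMI) and 539 CPM in Ptger4-OFF (52 cells), a ratio of 4.82 (counting interval 3.08 to 7.99). Apoc2, the activator of lipoprotein lipase, was at 726 CPM and 1605 CPM, 2.21-fold higher and 1.59-fold over distinct cells. Scarb1, a lipoprotein receptor, had 0 UMIs in Ptger4-ON and 81.3 CPM in 24 Ptger4-OFF cells, at least 4.85-fold higher against the floor of 3 counts.

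Of the assembly machinery, Mttp and Dgat1 lay near equality over every member, and Apob was lower in Ptger4-OFF. Mttp, which loads lipid onto apolipoprotein B, stood at 927 CPM and 1029 CPM (1242 CPM and 1026 CPM over distinct cells), and Dgat1, which makes triglyceride, at 447 CPM and 424 CPM. Apob, the structural protein of the chylomicron, stood at 798 CPM in Ptger4-ON and 557 CPM in Ptger4-OFF, 1.43-fold higher in Ptger4-ON over every member and 2.24-fold over distinct cells. Among 22 measured genes of fatty acid oxidation and PPAR targets the median was 0.09, and 2 passed 2-fold. Over distinct cells the median was 0.34, with 17 higher and 5 lower and with 4 past 2-fold higher and 1 lower. Among the 2 was Acaa1b, a peroxisomal thiolase, at 27.9 CPM and 147 CPM (5.28-fold, and 12.6-fold over distinct cells).

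Structural genes of the microvillus were lower in Ptger4-OFF throughout the list. All 15 measured genes had a ratio below 1, 13 of them also over distinct cells, against a background of 48.9% of all genes. The differences were small, with a median log2 ratio of -0.55 (-0.72 over distinct cells), and 2 genes passed 2-fold (4 over distinct cells). Tmigd1, an adhesion protein of the brush border, stood at 324 CPM in 8 Ptger4-ON cells and 72.2 CPM in 14 Ptger4-OFF cells. Slc9a3r1, the scaffold protein EBP50, stood at 447 CPM and 187 CPM, 2.39-fold higher in Ptger4-ON. Vil1 was at 1133 CPM and 781 CPM, and Ezr, which encodes the membrane-actin linker ezrin, at 765 CPM and 450 CPM. In the other non-cycling epithelial cells the list had a median log2 ratio of -0.17.

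**Figure D3:**
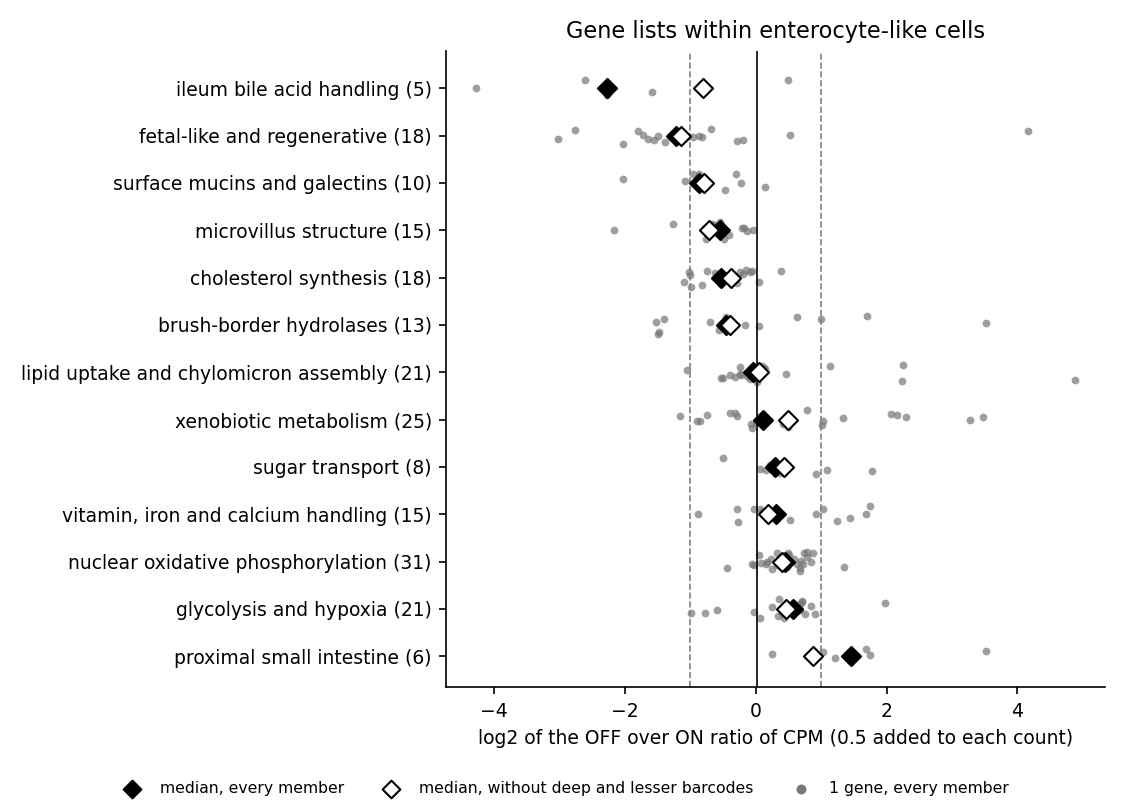
For 13 gene lists, each grey point is the log2 of the Ptger4-OFF over Ptger4-ON ratio of CPM of 1 gene in enterocyte-like cells, with 0.5 added to each count and the number of measured genes in brackets. Diamonds are list medians over every member (filled) and over distinct cells (open), the solid line is the median of all genes at 0.02 and the dashed lines are 2-fold. The ileal list has its filled diamond at -2.27 and its open diamond at -0.80.

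Brush-border hydrolases were lower in Ptger4-OFF for most genes and higher for a few. Of 13 measured, 8 were lower and 5 higher, with a median of -0.45, and over distinct cells 10 were lower, 5 past 2-fold, and 3 higher. Mgam stood at 2881 CPM in Ptger4-ON and 1001 CPM in Ptger4-OFF, 2.88-fold higher in Ptger4-ON (interval 2.56 to 3.23) and 4.06-fold over distinct cells. Mep1b, a metalloprotease subunit, stood at 363 CPM and 129 CPM, and Cndp2, a cytosolic dipeptidase listed with them, at 664 CPM and 239 CPM. Lct, which encodes lactase (chr1:128284756-128328318), was the opposite, with 3 UMIs in 2 Ptger4-ON cells and 149 UMIs in 36 Ptger4-OFF cells. Its levels of 16.7 CPM and 224 CPM give a ratio of 13.4 with a wide counting interval of 4.49 to 65.6, and 20.8 over distinct cells. Asah2, a neutral ceramidase, was 3.47-fold higher in Ptger4-OFF, at 39.1 CPM and 135 CPM.

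Detoxification genes were divided by gene rather than shifted as a group. Of 25 measured, 16 were higher and 9 lower in Ptger4-OFF, with 8 and 1 past 2-fold and a median of 0.12 (5 and 1 past 2-fold and a median of 0.50 over distinct cells). Gstm1, a glutathione transferase, stood at 134 CPM in 6 Ptger4-ON cells and 1324 CPM in 53 Ptger4-OFF cells, a ratio of 9.88 that was 5.87 over distinct cells. Adh1, the alcohol and retinol dehydrogenase, stood at 27.9 CPM and 339 CPM, with all of its 5 Ptger4-ON UMIs in 1 cell. Cyp3a11 stood at 223 CPM and 1013 CPM, a ratio of 4.53 (3.29 to 6.41) that was 2.22 over distinct cells. Aadac, a microsomal esterase, stood at 61.4 CPM and 314 CPM, with a ratio of 5.12 and 2.31 over distinct cells. The deep barcode held 12.5% of the Ptger4-ON UMIs of Gstm1, 5% of those of Cyp3a11 and 0% of those of Adh1 and Aadac, against 51.4% of all member UMIs.

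Other members of the same families were level or lower. Cyp3a13 stood at 3110 CPM in Ptger4-ON and 1396 CPM in Ptger4-OFF, 2.23-fold higher in Ptger4-ON and 3.61-fold over distinct cells. Gsta1, another glutathione transferase, stood at 6482 CPM and 3595 CPM. Cyp2c29 stood at 1033 CPM and 1113 CPM, in only 6 and 27 cells. Abcb1a, an efflux pump for drugs, stood at 949 CPM and 513 CPM. The 2 Cyp3a genes named here thus differed in opposite directions between the same libraries.

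Sugar handling genes were mostly higher in Ptger4-OFF, 7 of 8 with a median of 0.30. Khk, the first enzyme of fructose breakdown, stood at 368 CPM and 793 CPM. Fbp1, an enzyme of glucose synthesis, stood at 290 CPM and 554 CPM, with 86.5% of the Ptger4-ON UMIs in 1 cell, and the ratio of 1.91 was 7.2 over distinct cells. Slc5a1, the sodium-coupled glucose transporter, was the gene that lay the other way, at 888 CPM and 629 CPM. Among 7 measured transporters of amino acids and peptides the median was -0.12. Slc6a19, the transporter of neutral amino acids, stood at 89.3 CPM in 3 Ptger4-ON cells and 18.1 CPM in 10 Ptger4-OFF cells, 4.95-fold higher in Ptger4-ON and 9.5-fold over distinct cells. The other 5 of the 12 listed were under the filter of 20 UMIs.

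The measured genes of regional identity mostly differed in opposite directions for the ends of the small intestine. All 6 measured genes of the proximal list were higher in Ptger4-OFF, with 5 past 2-fold and a median of 1.45, and 4 of 5 measured genes of ileal bile acid handling were lower, all 4 past 2-fold, with a median of -2.27. Over distinct cells the medians were 0.87 and -0.80, with 2 genes past 2-fold in each list and 5 of the 6 proximal genes higher. Cybrd1, the duodenal iron reductase, stood at 78.2 CPM in 4 Ptger4-ON cells and 271 CPM in 37 Ptger4-OFF cells, a ratio of 3.47 that was 1.8 over distinct cells. Slc11a2, which imports the reduced iron, stood at 44.7 CPM and 152 CPM, with a ratio of 3.4 and 2.32 over distinct cells. Lct was described above. Fabp6 of the ileal list and Pdx1 of the proximal list had no UMI in members of either library, and Nr0b2 of the ileal list had none in Ptger4-ON.

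Fgf15 (chr7:144896531-144900953), the ileal hormone that signals bile acid return to the liver, stood at 447 CPM in 6 Ptger4-ON cells and 22.6 CPM in 4 Ptger4-OFF cells. Of its 80 Ptger4-ON UMIs, 82.5% were in the deep barcode. The 19.8-fold difference was 5.23-fold (interval 2.17 to 12.2) over distinct cells, with 131 CPM and 25.1 CPM. Slc51a, a subunit of the basolateral bile acid exporter, stood at 268 CPM and 43.6 CPM, 6.14-fold higher in Ptger4-ON and 6.2-fold over distinct cells. Slc51b, its partner subunit, stood at 346 CPM and 116 CPM, 2.99-fold higher and 1.66-fold over distinct cells (interval 0.917 to 2.84). Slc10a2, the ileal transporter that takes up bile acids, stood at 167 CPM in 4 cells and 34.6 CPM in 14 cells, 4.84-fold higher and 1.62-fold over distinct cells (interval 0.479 to 4.38). Nr1h4, which encodes the bile acid receptor FXR, lay the other way, at 100.5 CPM and 144 CPM. Of the 4 genes higher in Ptger4-ON, Slc51a was the one whose ratio moved least without the deep barcode. Over distinct cells the counting intervals of Slc51b and Slc10a2 included equality. None of these intervals contains the spread between cells or cultures.

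**Figure D4:**
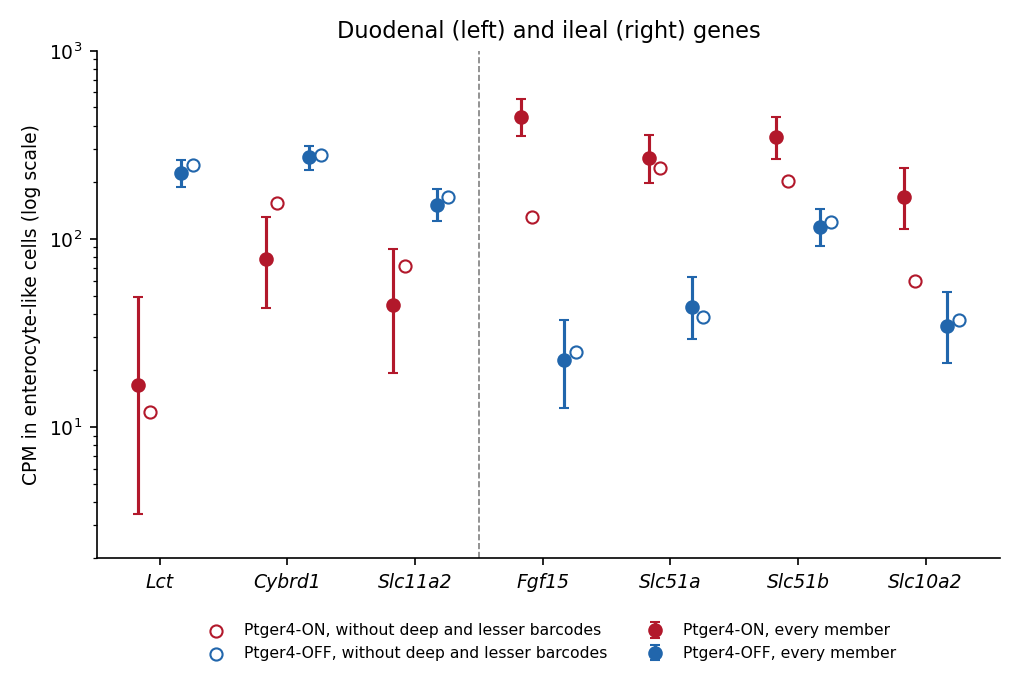
CPM on a log axis in enterocyte-like cells for 3 duodenal genes (left of the dashed line) and 4 ileal genes (right), by library. Filled points with 95% Poisson intervals for counting error are over every member and open points over distinct cells, with Fgf15 in Ptger4-ON at 447 CPM and 131 CPM.

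Few cells showed ileal and duodenal transcripts together at equal depth, and many did at full depth. After thinning to 1000 UMIs, 7 of 15 Ptger4-ON cells showed Fgf15, Slc10a2, Slc51a or Slc51b, 2 showed Lct, Cybrd1 or Slc11a2, and 0 showed both. Of 86 Ptger4-OFF cells, 13 showed an ileal gene, 39 a duodenal gene and 4 both. Fgf15, Slc51b and Lct were seen in 0% of non-epithelial cells at that depth, and Slc11a2 in 4.87% and 5.08% of them. At full depth 4 of 16 Ptger4-ON and 35 of 91 Ptger4-OFF cells showed both. Whether the 2 sets of genes avoid each other was not tested. An ileal gene was seen at full depth in 9 of 16 and 45 of 91 cells, and a duodenal gene in 6 and 63. Over distinct cells at full depth it was 6 of 12 and 42 of 86 for an ileal gene, and 5 and 60 for a duodenal gene. The thinned cells were not limited to distinct cells. The share of cells with an ileal gene thus differed between libraries at 1000 UMIs and lay close at full depth.

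More vitamin, iron and calcium genes were higher than lower in Ptger4-OFF. Of 15 measured, 11 were higher in Ptger4-OFF, 5 of them past 2-fold and none lower by 2-fold, with a median of 0.32. Over distinct cells 9 were higher and 6 lower, with 3 past 2-fold higher and a median of 0.18. S100g, the calcium carrier calbindin-D9k, stood at 212 CPM and 509 CPM, and Slc46a1, the folate transporter, at 44.7 CPM and 128 CPM. The S100g ratio of 2.4 was 1.42 over distinct cells. Fth1, the heavy chain of ferritin, was present in all 16 and all 91 members, at 13058 CPM and 14875 CPM.

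Guanylin and several genes of the villus surface were lower in Ptger4-OFF. Guca2a, which encodes guanylin, a secreted activator of chloride and water secretion, stood at 2674 CPM in 12 Ptger4-ON cells and 348 CPM in 42 Ptger4-OFF cells. It was 7.69-fold higher in Ptger4-ON (6.56 to 9.04) and 5.4-fold over distinct cells, and in the other non-cycling epithelial cells it stood at 474 CPM and 231 CPM. Guca2b differed less, 1.72-fold. Krt20, a keratin of differentiated cells, stood at 3389 CPM and 1321 CPM, 2.57-fold higher in Ptger4-ON and 2.27-fold over distinct cells. Muc3, a membrane mucin of the brush border, stood at 849 CPM and 402 CPM, and Cldn4, a tight junction claudin, at 419 CPM and 102 CPM. Of 10 measured surface mucins, claudins and galectins, 9 were lower in Ptger4-OFF, 2 of them past 2-fold, with a median of -0.86. Over distinct cells 8 were lower, 3 past 2-fold, and 1 was past 2-fold higher.

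Villus tip genes pointed both ways. Leaving aside the gate gene Apoa4, 1 measured gene was past 2-fold higher in Ptger4-OFF (Apoc3) and 3 lower (Ada, Tmigd1 and Krt20), and over distinct cells Fos and Junb also passed 2-fold higher. Ada, adenosine deaminase, stood at 720 CPM in 6 Ptger4-ON cells and 52.7 CPM in 8 Ptger4-OFF cells, 13.7-fold higher in Ptger4-ON and 26.8-fold over distinct cells. In each library few cells carried it, with 42.6% of the Ptger4-ON and 65.7% of the Ptger4-OFF UMIs in a single cell.

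Genes of fetal-like and regenerative epithelium were lower in Ptger4-OFF members. Of 18 measured, 16 were lower, 10 of them past 2-fold, with a median log2 ratio of -1.22, and over distinct cells the median was -1.14. The median was -0.41 with the gate lowered to 0.3%. S100a6 stood at 2082 CPM in 15 of 16 Ptger4-ON cells and 712 CPM in 38 of 91 Ptger4-OFF cells, 2.93-fold higher in Ptger4-ON (2.55 to 3.36) and 3.3-fold over distinct cells. At 1000 UMIs it was seen in 73.3% of Ptger4-ON members (44.9% to 92.2%) and 22.1% of Ptger4-OFF members (13.9% to 32.3%). Fibroblasts carry the gene, with a UMI in 82.0% and 83.3% of the non-epithelial cells, so these cells do not give a background level for it.

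Il1rn, the antagonist of the interleukin-1 receptor, stood at 341 CPM in 6 Ptger4-ON cells and 49.7 CPM in 9 Ptger4-OFF cells, 6.86-fold higher in Ptger4-ON. Cxcl16, a membrane-bound chemokine, stood at 218 CPM and 66.2 CPM, 3.29-fold higher, and Emp1, an epithelial membrane protein, at 491 CPM and 156 CPM, 3.14-fold higher and 1.74-fold over distinct cells. Anxa2, a membrane binding annexin, stood at 3439 CPM and 1947 CPM. The 2 genes that were higher in Ptger4-OFF were Ccnd2, a cyclin, at 179 CPM and 260 CPM, and Clu. Clu, the marker of revival stem cells, stood at 11.2 CPM in 2 Ptger4-ON cells and 250 CPM in 10 Ptger4-OFF cells, with 71.1% of the Ptger4-OFF UMIs in 1 cell. Ly6a, the surface antigen Sca-1, had 97.1% of its Ptger4-ON UMIs in 1 cell and turned over distinct cells, from 195 CPM and 94.8 CPM to 11.9 CPM and 102 CPM. The same list was lower in Ptger4-OFF in the other non-cycling epithelial cells too, with a median of -1.47, where its summed level was 19290 CPM and 7937 CPM against 11244 CPM and 6207 CPM in members.

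Transcription factors of the enterocyte were near equality, with a median of 0.10 over 25 measured genes, 1 past 2-fold higher (Gata4) and 1 lower (Ppara), and with 1 higher and 3 lower past 2-fold over distinct cells. Hnf4a, a central regulator of enterocyte genes, stood at 301 CPM in Ptger4-ON and 330 CPM in Ptger4-OFF, and Hnf4g, its intestinal relative, at 112 CPM and 125 CPM (191 CPM and 132 CPM over distinct cells). Cdx1, an intestinal homeobox factor, stood at 123 CPM and 119 CPM, Creb3l3 at 1011 CPM and 1085 CPM (1123 CPM and 1101 CPM over distinct cells), and Gata6 at 184 CPM and 229 CPM. Gata4, a factor of the proximal gut, had 2 and 21 UMIs, at 11.2 CPM and 31.6 CPM, with an interval of the ratio from 0.692 to 24.9. Ppara, a fatty acid receptor, stood at 128 CPM and 49.7 CPM, 2.59-fold higher in Ptger4-ON, with an interval over distinct cells of 0.921 to 4.8.

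The receptor that the antagonist blocks was sparse in these cells. Ptger4 had 15 UMIs in 3 Ptger4-ON cells, 80.0% of them in the deep barcode, and 37 UMIs in 27 Ptger4-OFF cells, for 83.7 CPM and 55.7 CPM and 35.8 CPM and 58.7 CPM over distinct cells. At 1000 UMIs it was seen in 6.67% and 5.81% of members and in 0.375% and 0.565% of non-epithelial cells. Hpgd, the enzyme that inactivates prostaglandins, stood at 341 CPM and 144 CPM in members and at 18.4 CPM and 24.4 CPM in the other non-cycling epithelial cells. It was thus 18.5-fold and 5.92-fold above those cells, and 2.36-fold higher in Ptger4-ON members (1.68 to 3.28). Ptgs1 and Ptgs2, which start prostaglandin synthesis, the receptors Ptger1, Ptger2 and Ptger3, and the exporter Abcc4 had no UMI in members of either library. Of 17 listed cAMP-responsive genes only 4 were measured. All 4 were higher in Ptger4-OFF, with a median of 0.55 and none past 2-fold over every member. Over distinct cells the median was 1.10, with 2 past 2-fold (Dusp1 and Fos). Fos is also counted among the villus tip genes and the stress genes of dissociation, so these lists are not separate observations. The part of dissociation in the cAMP list was not tested. The level of Areg, an EGF receptor ligand, was 1228 CPM and 1685 CPM.

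Genes of energy supply were slightly higher in Ptger4-OFF. Of 31 nuclear genes of oxidative phosphorylation, 28 were higher, with a median of 0.45, and 1 passed 2-fold, against 5 past 2-fold over distinct cells. All 7 measured mitochondrially encoded genes were higher, 3 past 2-fold, with a median of 0.90 (6 of 7, 0 past 2-fold and 0.51 over distinct cells), and mt-Nd1 stood at 2764 CPM and 5554 CPM. The median share of mitochondrial UMIs per cell was 2.49% and 3.40% in members and 2.15% and 3.34% in the other non-cycling epithelial cells. The part of mitochondrial content in these ratios was not tested. Of 35 ribosomal protein genes 29 were higher, none by 2-fold, with a median of 0.39, and over distinct cells 2 were past 2-fold higher and 1 lower.

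Hypoxia and glycolysis genes were higher as well, 17 of 21 with a median of 0.57 and 1 past 2-fold (2 higher and 1 lower past 2-fold over distinct cells). Ndrg1, a gene induced by low oxygen, stood at 374 CPM in 15 Ptger4-ON cells and 1476 CPM in 81 Ptger4-OFF cells, a ratio of 3.95 (3.08 to 5.13) and 2.79 over distinct cells. Ero1l, an oxidase of the endoplasmic reticulum, stood at 480 CPM and 2400 CPM, with a ratio of 5 (4.02 to 6.28) and 4.96 over distinct cells. In the other non-cycling epithelial cells these genes stood at 245 CPM and 575 CPM, and at 426 CPM and 759 CPM. Of 18 measured cholesterol synthesis genes 16 were lower in Ptger4-OFF, with a median of -0.53. Sqle, which makes squalene epoxide, stood at 318 CPM and 191 CPM, and 3 genes were past 2-fold lower (2 over distinct cells).

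Stress genes of dissociation were mostly higher in Ptger4-OFF. Of 15 measured, 11 were higher, 2 of them past 2-fold and none lower by 2-fold, with a median of 0.34. Over distinct cells 13 were higher, 6 past 2-fold and none lower by 2-fold, with a median of 0.63. Fos, an immediate early gene, stood at 592 CPM and 930 CPM, 1.57-fold higher and 2.55-fold over distinct cells. Among 15 genes of the unfolded protein response the median was 0.03, and Ddit3, which encodes CHOP, stood at 44.7 CPM and 150 CPM. Cdkn1a, which encodes the cell cycle inhibitor p21, stood at 1262 CPM and 1860 CPM in 13 and 84 cells. Their part in the other ratios was not tested.

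The largest ratios included genes of diverse function. Npl, which breaks down sialic acid, had 1 UMI in Ptger4-ON and 106 UMIs in 29 Ptger4-OFF cells, 5.58 CPM and 159 CPM, a ratio of 28.6 with an interval of 5.02 to 1140, and 14.7 over distinct cells. Ctrb1, which encodes chymotrypsinogen B and is best known from the exocrine pancreas, stood at 128 CPM in 3 Ptger4-ON cells and 1902 CPM in 43 Ptger4-OFF cells, a ratio of 14.8 (9.83 to 23.5) and 15.9 over distinct cells. In the other non-cycling epithelial cells it stood at 0.635 CPM and 77.3 CPM. At 1000 UMIs it was seen in 1 of 15 and 30 of 86 members and in 0% of non-epithelial cells, while of the other 4 exocrine pancreas genes in the files Prss2, Try5 and Cel had no UMI in members and Cela1, an elastase, stood at 33.5 CPM and 27.1 CPM. Hsd17b13, a lipid droplet protein, stood at 50.2 CPM and 403 CPM, with a ratio of 8.03 and 4.28 over distinct cells. Leap2 stood at 106 CPM and 805 CPM, with a ratio of 7.59 and 4.1, and Retsat, a retinol saturase, at 39.1 CPM and 202 CPM.

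At the other end, Dnase1 stood at 145 CPM in 7 Ptger4-ON cells and 16.6 CPM in 7 Ptger4-OFF cells, 8.77-fold higher in Ptger4-ON (4.19 to 19.7). Ccng2, a cyclin of resting cells, stood at 184 CPM and 55.7 CPM, 3.31-fold higher in Ptger4-ON and 3.98-fold over distinct cells. Oxct1, which uses ketone bodies, stood at 497 CPM and 179 CPM, 2.78-fold higher. Trim25, Flot1, Tbc1d15 and Cdc42se2 each had 20 to 24 UMIs in Ptger4-ON and were 2.81-fold to 3.12-fold higher there, with Tbc1d15 at 4.85-fold over distinct cells. These 4 genes lie close to the count minimum, and their counting intervals start between 1.54 and 1.71.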

How the data were processed

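Single-cell RNA from 2 pooled Drop-seq libraries was analysed as deposited: tables of UMI counts per gene and barcode. Per the submitters' processing notes the authors used STAR 2.6 and build mm10, and nothing further on that step was at hand. Members were gated as described above, and the counts deposited by the authors were summed over members per library and scaled to CPM. Ratios carry exact conditional binomial intervals, CPM exact Poisson intervals and shares Clopper-Pearson intervals (95%), all for counting error only. With 1 library per condition no test was run; a call means 2-fold, with at least 20 UMIs over both libraries and a pseudocount of 0.5. The members and gene lists were chosen with earlier results of these data known. There were 223 named genes. Ranked ones were the 12 largest and 12 smallest ratios, and the 12 genes highest and 8 lowest against other epithelial cells. The ranked genes had at least 100 CPM in a library, at least 5 cells with a UMI and no cell with over 50% of the UMIs where higher. Up to 4 measured members per list by ratio and 2 by level were taken without those limits. The label, gate and prostaglandin genes were added, also without them. Other list members (Abcb1a, Apob, Ccnd2, Cdx1, Cndp2, Cyp3a13, Dgat1, Emp1, Fcgbp, Gata6, Hnf4a, Hnf4g, Junb, Ly6a, Mttp, Nr1h4, Sqle and genes given as at 0) were named after their values were seen. A few genes and one motif are not reported here. The scripts were tested on simulated data. Scanpy 1.11.5 ran Scrublet, edgeR 4.0.16 in R 4.3.3 gave TMM factors for an alternative scaling only, and the rest used scipy 1.17.1 and pandas 2.3.3 in Python 3.11.15, with gene positions from GENCODE vM21 (GRCm38). Of the alternatives, 21 were planned and 2, without deep and lesser barcodes, were added after seeing the data.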

Additional observations from a re-analysis of the deposited data

How the results depend on the processing

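The share ratio of 2.77 stayed between 2.46 and 3.03 under its 13 alternatives. The counts of 531 higher and 338 lower genes depended on the depth asked of a gene: 864 and 619 with at least 10 UMIs, 202 and 134 with 50, 1468 and 1833 with no filter, 164 and 82 with cells thinned to 1000 UMIs, and 1102 and 619 with each cell weighted equally. Equal weights over distinct cells gave 522 lower genes. With no filter, 44.5% of the genes past 2-fold were higher in Ptger4-OFF, against 61.1%. Equal weights moved the median of all genes from 0.02 to 0.16. The ileal median of -2.27 was -1.17 with equal weights, -0.99 without barcodes over 50000 UMIs, -0.80 over distinct cells and -0.27 with equal weights over distinct cells. The fetal-like median was -0.41 with the gate at 0.3%, and the lipid median 0.53 with thinned cells. The microvillus median ran from -0.72 to -0.47 and the xenobiotic median from 0.10 to 0.65. Of 97 named genes past 2-fold, 7 turned under some alternative. With equal weights Cenpe was at -0.64 (log2) and Mmp7 at 0.34. Without barcodes over 50000 UMIs Itln1 was at 0.10, Mmp7 at 4.55, Reg3g at 0.83 and Tff3 at 1.48. Over distinct cells Itln1 was at 0.91, Mmp7 at 4.52, Reg3g at 1.41, Spink4 at 1.14 and Tff3 at 1.76. With equal weights over distinct cells Cenpe was at -1.08, Itln1 at 0.83, Mmp7 at 3.33, Reg3g at 1.24, Slc10a2 at 0.00153, Spink4 at 2.66 and Tff3 at 0.71. The cause of the gate and weighting differences was not tested. No paired analysis was possible because each condition is 1 library. With 16 Ptger4-ON cells, a gene under 20 UMIs or in few cells was not measurable with useful precision at this depth.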

Other observations

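Genes of epithelial defence were also read in the enterocyte-like cells. Ccl25, the chemokine of small intestinal epithelium, stood at 1038 CPM in Ptger4-ON and 906 CPM in Ptger4-OFF, and at 741 CPM and 972 CPM over distinct cells. Nlrp6, an innate sensor, stood at 229 CPM and 469 CPM, and Reg3b, an antimicrobial lectin, at 11.2 CPM and 289 CPM with 53.1% of the Ptger4-OFF UMIs in 1 cell. The class I genes H2-K1 and B2m were seen in 15 of 16 Ptger4-ON cells each, at 1172 CPM and 2239 CPM, against 1321 CPM and 2192 CPM in Ptger4-OFF. Over distinct cells H2-K1 stood at 1374 CPM and 1314 CPM and B2m at 1565 CPM and 2230 CPM.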
